A study of Mus musculus with 35 samples.

Results

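Uncoupling protein 1 and the genes of the other heat-producing futile cycles were followed in interscapular brown adipose tissue (iBAT) of mice over a cold exposure time course. The 10 genes, chosen by name, were the uncoupling proteins Ucp1, Ucp2 and Ucp3, the creatine cycle genes Ckb, Ckmt2, Gatm, Slc6a8 and Alpl, and the calcium cycle genes Atp2a2 and Sln. All 10 were among the 55421 genes of the count table. Whole iBAT came from male C57BL/6J mice, with no transgene or deletion, that were 9-10 weeks old. Controls stayed at the colony room temperature of 24 °C, and the others spent 6 hours or 1, 2, 3, 4 or 5 days at 6 °C. Each of the 7 groups held 5 mice, and each mouse gave 1 library. Cold-exposed mice lived alone in static cages without nesting material, so that housing and temperature cannot be told apart.

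Brown adipocytes turn chemical energy into heat. UCP1 lets protons leak back across the inner mitochondrial membrane without making ATP, and noradrenaline released in the cold both activates the protein and raises transcription of its gene. Other futile cycles spend ATP instead: in the creatine cycle, creatine is phosphorylated by creatine kinase and the phosphate is removed again, and in the calcium cycle, calcium is pumped into the endoplasmic reticulum and leaks out. UCP2 and UCP3 are related mitochondrial carriers whose part in heat production is not settled.

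RefSeq (GRCm38.p6) gave promoters for 7 of the 10 genes. Alpl has a pair of them, so that 8 promoters were read. The 250 bases before the transcription start are shown for the 3 genes with the largest rises, Ucp1, Ckb and Alpl, in the direction of transcription. Capitals mark the short core of the cAMP response element (CRE), TGACG on either strand, a sequence bound by factors of the cAMP pathway. The Ucp1 promoter is chr8:83290098-83290347 on the plus strand, and that of Ckb is chr12:111672339-111672588 on the minus strand. For Alpl, also on the minus strand, the upstream promoter is chr4:137796385-137796634 and the downstream one is chr4:137766476-137766725.
Ucp1: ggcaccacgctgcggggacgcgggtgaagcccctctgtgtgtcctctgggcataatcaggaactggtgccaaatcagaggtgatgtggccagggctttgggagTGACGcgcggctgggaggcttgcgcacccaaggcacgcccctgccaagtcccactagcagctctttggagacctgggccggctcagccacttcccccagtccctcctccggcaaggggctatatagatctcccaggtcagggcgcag
Ckb: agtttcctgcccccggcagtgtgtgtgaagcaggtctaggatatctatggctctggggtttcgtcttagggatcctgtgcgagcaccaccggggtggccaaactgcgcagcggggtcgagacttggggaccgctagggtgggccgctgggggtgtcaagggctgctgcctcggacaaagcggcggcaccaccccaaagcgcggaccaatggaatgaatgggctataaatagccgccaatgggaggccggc
Alpl upstream: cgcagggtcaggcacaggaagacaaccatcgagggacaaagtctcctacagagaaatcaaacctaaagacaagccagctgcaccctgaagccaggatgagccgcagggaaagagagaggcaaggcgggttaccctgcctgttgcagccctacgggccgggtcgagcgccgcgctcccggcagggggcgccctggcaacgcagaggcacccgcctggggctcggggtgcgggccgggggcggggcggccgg
Alpl downstream: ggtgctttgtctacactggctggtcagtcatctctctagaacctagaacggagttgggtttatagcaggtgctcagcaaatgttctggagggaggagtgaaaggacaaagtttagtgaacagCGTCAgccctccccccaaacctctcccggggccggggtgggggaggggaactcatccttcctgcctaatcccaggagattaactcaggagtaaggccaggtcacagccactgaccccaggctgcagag

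The core stood 147 to 143 bases before the start of Ucp1 and 128 to 124 bases before the downstream start of Alpl. The only other of the 8 promoters with a match was that of Ucp2, at 62 to 58 bases before the start, and 17.8% of 32851 mouse promoters of this length held one. None of the 8 held the full CRE TGACGTCA, the DR1 element bound by PPAR receptors, or the E-box CACGTG, on either strand, which were found in 1.55%, 0.0335% and 6.02% of all promoters. The full CRE contains the core. The counts do not separate the transcripts that start at the Alpl promoters.

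Between 3846016 and 6047247 reads per library were counted on genes, of which 33.6% to 46.2% were mitochondrial. Levels are given as CPM (read counts scaled to a common library size) after scaling by trimmed mean of M values (TMM), where 1 read corresponds to 0.151 to 0.289 CPM. Since the library kit reads transcript ends, counts were not divided by length. Summed brown adipocyte markers reached 4184 CPM or more in every library. Summed skeletal muscle markers, by contrast, ranged from 55.4 to 2165 CPM, and 4 libraries exceeded 2.5 times the median of 525 CPM: room temperature replicates 1 and 3, the fifth mouse of 1 day and the fifth of 4 days. In whole tissue, fewer cells of a type and less RNA per cell cannot be told apart. Groups were compared with edgeR's quasi-likelihood test at a Benjamini-Hochberg adjusted p below 0.05 over all genes tested, and log2 fold changes (log2FC) are given ± SE. All 6 comparisons with room temperature use the same 5 control mice. The share of all genes with no overlap between cold-exposed mice and controls was not counted.

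After 6 hours, 4 of the 8 genes that passed the count filter, Ucp1, Ckb, Alpl and Atp2a2, were higher than at room temperature, where 21.5% of the 10593 genes tested were higher. These 4 stayed higher at each later duration, beside 18.9% (1 day), 16.4% (2 days), 18.3% (3 days), 19.4% (4 days) and 20.2% (5 days) of all genes higher. Of the 8, 1 gene, Slc6a8, was lower after 1 day and after 2 days, beside 17.8% and 14.7% of all genes. The other members tested, Ucp2, Ucp3 and Ckmt2, passed in no comparison with room temperature. Gatm and Sln had too few reads to be tested this way at any duration, as had Ckmt2 after 5 days. The median log2FC of the members tested lay between 0.47 and 0.87, and that of all genes tested between -0.03 and -0.01. Scaling by library size alone moved the median of all genes to between -0.25 and -0.15, and the share of higher genes among those called from 50.6-54.2% to 25.1-35.5%, while Ucp1, Ckb, Alpl and Atp2a2 were called higher at every duration under both scalings.

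**Figure D1:**
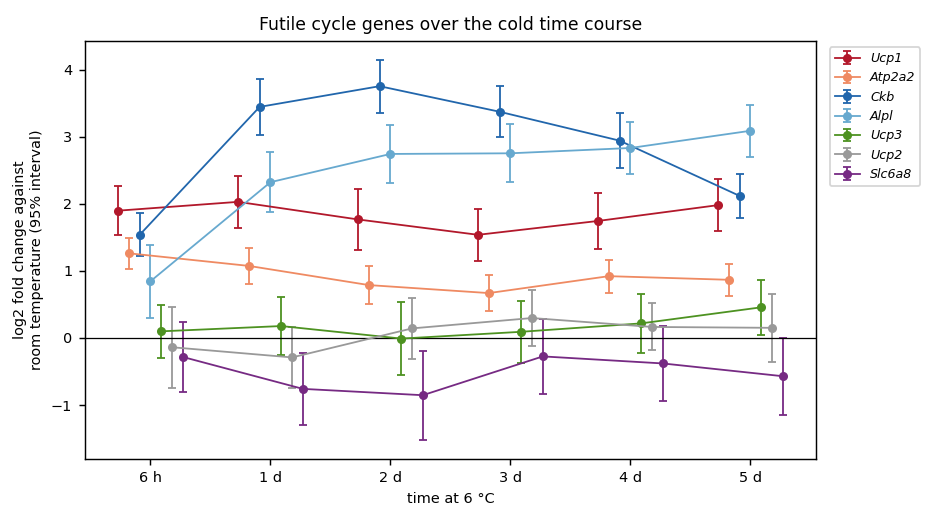
Log2 fold change against room temperature (y axis, edgeR, bars are 95% confidence intervals) by time at 6 °C (x axis, points shifted sideways) for the 7 genes tested at every duration. Ucp1 stays between 1.54 and 2.03, Ckb rises to 3.76 after 2 days and is at 2.12 after 5 days, and Alpl climbs from 0.85 to 3.09.

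Ucp1 (ENSMUSG00000031710, chromosome 8, 83290352 to 83298452, plus strand, GRCm38) encodes the proton leak of brown fat. Its levels at room temperature were 2814, 1983, 2115, 1403 and 1290 CPM in the 5 mice, a mean of 1921 ± 614 (SD). After 6 hours they were 6926, 6755, 6642, 6885 and 9116 CPM. The lowest cold-exposed mouse of this duration lay far above the highest control, and the fifth mouse stood apart from the other 4. The rise was 3.73-fold (95% CI 2.90 to 4.80, log2FC 1.90 ± 0.17, adjusted p = 1.24e-07).

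The level of Ucp1 stayed in this range. Mice exposed for 1 day held 9018, 7847, 7175, 8641 and 6543 CPM, and mice exposed for 2 days held 4131, 6417, 6996, 7016 and 8325 CPM. After 3 days the values were 5200, 5874, 4302, 6774 and 5591 CPM. All of these mice were still above every control. The 4 days group held 5938, 5244, 5089, 7816 and 8246 CPM. After 5 days Ucp1 was at 5784, 7376, 8099, 8903 and 7875 CPM, 3.95-fold above room temperature (95% CI 3.03 to 5.16, adjusted p = 2.20e-07). No cold-exposed mouse overlapped with the controls at any duration. From low to high, the mean levels were 1921 CPM at room temperature, 5548 (3 days), 6467 (4 days), 6577 (2 days), 7265 (6 hours), 7607 (5 days) and 7845 (1 day), and no neighbours in this order passed the test within the cold.

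Whether Ucp1 varied with time in the cold depended on the test. Over the 6 cold durations together, with 41.5% of genes passing, Ucp1 had an adjusted p of 0.0848. The test passed with DESeq2's likelihood ratio test (adjusted p = 0.0472), with no filter on low counts (0.0214) and with a replicate block (0.0359), as well as without the first mouse of 2 days (0.0398) or of 5 days (0.0495). Of single pairs of durations, 3 days was below 6 hours (log2FC -0.36, adjusted p = 0.0395) and below 1 day (-0.48, adjusted p = 0.0272), where 15.3% and 5.11% of genes were lower. After 5 days Ucp1 was not distinguishable from 6 hours (log2FC 0.08, 95% CI -0.19 to 0.35, adjusted p = 0.657).

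**Figure D2:**
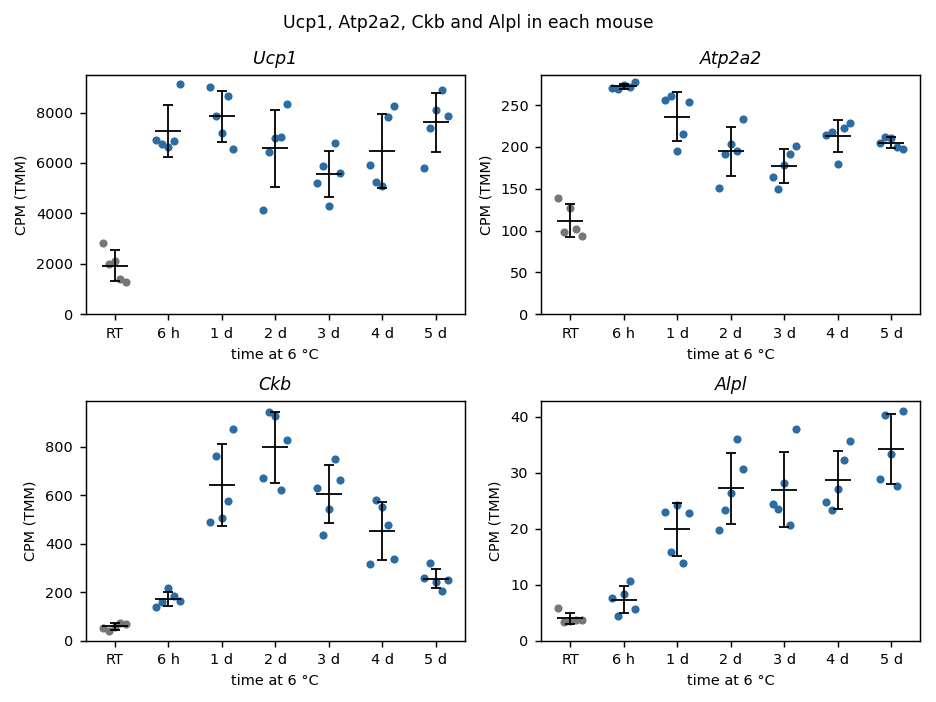
TMM-scaled CPM (y axes, from 0) of Ucp1, Atp2a2, Ckb and Alpl in each of 35 mice by time at 6 °C (x axes, RT is room temperature); points are mice, horizontal marks are means and bars are SD of 5 mice. Ucp1, Atp2a2 and Ckb lie above all control mice at every cold duration, and Alpl does so from 1 day on. How many of all genes do so was not counted.

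Among the other uncoupling proteins, Ucp3 (ENSMUSG00000032942, chromosome 7, 100472990 to 100486432, plus strand), which is best known from skeletal muscle, was moderately expressed. Room temperature mice held 96.8, 66.0, 60.2, 62.7 and 30.9 CPM, and mice after 6 hours held 72.0, 69.0, 68.2, 72.3 and 62.2 CPM. The controls thus spread more widely than the 6 hours group and enclosed it. After 5 days the levels were 70.2, 81.6, 95.7, 102 and 86.3 CPM, of which 1 exceeded the highest control. Against room temperature the change after 5 days was 0.46 ± 0.19 (adjusted p = 0.0706). The highest control, replicate 1, is among the libraries rich in muscle markers, and without it the log2FC was 0.66 (adjusted p = 0.00657). It was 0.71 (adjusted p = 0.0101) without all libraries rich in muscle markers, 0.52 (adjusted p = 0.0391) with a replicate block, 0.49 (adjusted p = 0.000992) with no filter on low counts, and 0.54 (adjusted p = 0.0492) without the first mouse of 5 days. These are the 5 of 18 alternative fits that gained a call. The other 13 gave none, with a log2FC as low as 0.22 and an adjusted p as high as 0.344.

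Compared directly, Ucp3 was higher after 5 days than after 6 hours (1.28-fold, log2FC 0.36 ± 0.11, adjusted p = 0.0139), and this call was lost when all 7 groups shared one estimate of the spread (log2FC 0.34, adjusted p = 0.192). At the durations in between, its mean lay from 63.7 CPM after 2 days to 73.9 CPM after 4 days. Ucp2 (ENSMUSG00000033685, chromosome 7, 100493337 to 100502020, plus strand), which is also expressed by immune cells, lay lower still, with group means from 9.64 CPM after 1 day to 14.5 CPM after 3 days against 11.8 ± 2.73 at room temperature. Its log2FC stayed between -0.29 and 0.30, with intervals that reached from -0.74 to 0.71. Exons of Ucp2 overlap those of Dnajb13 on the other strand, and whether counting used strand is not given in the sources used here. Of the reads on the 3 uncoupling proteins, Ucp1 held 94.9% to 96.8% in controls and 98.2% to 99.2% in the cold.

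Within the creatine cycle, Ckb (ENSMUSG00000001270, chromosome 12, 111669361 to 111672338, minus strand), the brain-type creatine kinase that brown fat also uses, rose most. Room temperature mice held 53.4, 38.9, 57.8, 74.4 and 67.5 CPM, and after 6 hours the levels were 139, 159, 218, 183 and 164 CPM. The groups did not overlap, and the rise was 2.91-fold (95% CI 2.32 to 3.64, log2FC 1.54 ± 0.15, adjusted p = 4.02e-07). Mice after 1 day held 489, 763, 507, 574 and 873 CPM. After 2 days, at the highest mean of the time course, Ckb stood at 670, 943, 926, 619 and 828 CPM. That was 13.5-fold above room temperature (95% CI 10.3 to 17.8, log2FC 3.76 ± 0.19, adjusted p = 5.10e-09).

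From there the level of Ckb declined. The values were 628, 435, 544, 751 and 662 CPM after 3 days, and 316, 580, 551, 477 and 335 CPM after 4 days. After 5 days they were 260, 319, 244, 206 and 251 CPM, still 4.35-fold above room temperature (95% CI 3.46 to 5.46, adjusted p = 1.61e-08). None of the mice of the 5 days group reached the lowest mouse of 1, 2 or 3 days. In direct tests, 5 days was below 1 day (log2FC -1.33, adjusted p = 2.90e-05), 2 days (-1.64, adjusted p = 4.52e-05) and 3 days (-1.26, adjusted p = 0.00034), where 8.68%, 2.22% and 0.892% of genes were lower. It was above 6 hours (0.58 ± 0.13, adjusted p = 0.00111). In the order of means, room temperature (58.4 CPM), 6 hours (173), 5 days (256), 4 days (452), 3 days (604), 1 day (641) and 2 days (797), no neighbours from 5 days upward passed edgeR's test. The widest gap among them was 5 days against 4 days (log2FC -0.83, 95% CI -1.18 to -0.48, adjusted p = 0.205 with edgeR), a comparison in which edgeR called 0% of 10651 genes and 742 had an unadjusted p below 0.05. DESeq2 called 7 genes there and Ckb was among them (adjusted p = 0.00549).

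Alpl (ENSMUSG00000028766, chromosome 4, 137741733 to 137796384, minus strand) encodes tissue-nonspecific alkaline phosphatase, the enzyme that can remove phosphate from phosphocreatine. Its level at room temperature was 5.81 CPM in the first mouse and 3.31, 3.49, 3.63 and 3.64 CPM in the others, so that 1 control stood apart. After 6 hours it was 7.62, 4.40, 8.30, 10.6 and 5.57 CPM. Of these 5 mice, 3 lay above all controls, and the rise was 1.8-fold (95% CI 1.23 to 2.63, log2FC 0.85 ± 0.26, adjusted p = 0.0144).

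In contrast to Ckb, Alpl did not decline. The 1 day group held 22.9, 15.8, 24.2, 13.8 and 22.8 CPM, and the 2 days group 19.7, 23.3, 26.3, 36.1 and 30.6 CPM. Values after 3 days were 24.3, 23.5, 28.2, 20.7 and 37.9 CPM, and those after 4 days 24.8, 23.3, 27.0, 32.4 and 35.6 CPM. From 1 day on, all mice were above all controls. At 5 days Alpl reached 28.9, 40.3, 33.4, 27.6 and 40.9 CPM, 8.53-fold above room temperature (95% CI 6.53 to 11.1, log2FC 3.09 ± 0.18, adjusted p = 1.06e-09). It was above 6 hours by 2.25 ± 0.20 on the log2 scale (adjusted p = 2.26e-08) and above 1 day by 0.77 (adjusted p = 0.00443), where 10.7% of genes were higher. The means ran from 3.98 CPM at room temperature through 7.31 (6 hours), 19.9 (1 day), 26.9 (3 days), 27.2 (2 days) and 28.6 (4 days) to 34.2 (5 days), and from 1 day on no neighbours in this order passed the test.

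Slc6a8 (ENSMUSG00000019558, chromosome X, 73673150 to 73682502, plus strand), the transporter that brings creatine into cells, went the other way at low levels. Controls held 5.03, 7.40, 7.86, 11.5 and 7.46 CPM. After 1 day the levels were 3.73, 4.12, 6.82, 3.33 and 5.07 CPM, and after 2 days they were 2.58, 5.58, 2.34, 7.37 and 4.91 CPM. Of each of these groups, 3 mice lay below all controls. The changes were 1.69-fold downward after 1 day (log2FC -0.76 ± 0.25, adjusted p = 0.0267) and 1.81-fold downward after 2 days (-0.85 ± 0.31, adjusted p = 0.0478). Both calls were fragile, since the first was lost without room temperature replicate 4 (-0.57, adjusted p = 0.0999) or without mouse 1, 2 or 4 of 1 day, and with all 7 groups in one fit (-0.76, adjusted p = 0.0570), and the second without any 1 of 8 of the 10 mice (adjusted p = 0.0528 to 0.15). The log2FC was between -0.57 and -0.27 at the other durations, with no call, and after 5 days a call appeared with library size scaling (-0.78, adjusted p = 0.0352) and without the first mouse (-0.76, adjusted p = 0.0417).

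The remaining creatine cycle genes were close to the detection limit. Gatm (ENSMUSG00000027199, chromosome 2, 122594467 to 122611303, minus strand), which encodes the first enzyme of creatine synthesis, had 3, 4, 8, 11 and 12 reads in the controls and 1, 1, 3, 1 and 1 reads after 6 hours. Summed over 5 mice, these were 38 against 7 reads, and the sum was 39 reads after 3 days and 12 reads after 5 days. An exact two-sided permutation test on log2 CPM (all splits of 5 against 5 mice, smallest possible p = 0.00794) gave p = 0.0159 after 6 hours and p = 0.0476 after 5 days, with adjusted values over the 6 durations of 0.0952 and 0.143. Without room temperature replicate 1, the adjusted value after 6 hours was 0.0476. Ckmt2 (ENSMUSG00000021622, chromosome 13, 91853387 to 91876885, minus strand), the mitochondrial creatine kinase of striated muscle, had 24, 1, 32, 19 and 12 reads in controls and between 4 and 5 reads in every mouse after 5 days. Its log2FC between 6 hours and 4 days ranged from -0.73 to 0.37 with SE of 0.58 to 0.73, and the exact permutation test after 5 days gave p = 0.127, which became 0.00794 without room temperature replicate 2, the control with 1 read, and 0.5 without the muscle-rich controls. An exon of 1700119I11Rik lies opposite to one of Ckmt2.

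In the calcium cycle, Atp2a2 (ENSMUSG00000029467, chromosome 5, 122453513 to 122502225, minus strand), which encodes the calcium pump SERCA2, was highest at the earliest time. Controls held 139, 98.1, 127, 101 and 93.7 CPM. After 6 hours the levels were 270, 270, 274, 272 and 277 CPM, with a coefficient of variation of 1.12%. The 5 mice thus lay close together and well above the controls, at 2.40-fold (95% CI 2.05 to 2.82, log2FC 1.26 ± 0.11, adjusted p = 8.34e-08). Their spread was smaller than counting error alone gives on average, so the closeness says little about the mice. The levels were 256, 260, 195, 216 and 254 CPM after 1 day and 151, 191, 203, 195 and 234 CPM after 2 days. They were 164, 150, 179, 191 and 201 CPM after 3 days. No mouse overlapped with the controls, although the lowest of 3 days came near the highest of them.

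Later in the time course Atp2a2 held 214, 218, 180, 223 and 229 CPM in the 4 days group and 204, 212, 211, 200 and 198 CPM at the end. The rise after 5 days was 1.83-fold (95% CI 1.55 to 2.15, adjusted p = 8.77e-06). It was below the level after 6 hours by a log2FC of -0.39 ± 0.09 (adjusted p = 0.00126), and so were 2, 3 and 4 days (log2FC -0.47, -0.59 and -0.33, adjusted p = 0.00492, 0.000126 and 0.007), where 11.4%, 15.3% and 16.7% of genes were lower. Ordered by mean, the groups were room temperature (112 CPM), 3 days (177), 2 days (195), 5 days (205), 4 days (213), 1 day (236) and 6 hours (272), and no neighbours within the cold passed the test. One exon of Gm43361 overlaps Atp2a2 on the other strand. Sln (ENSMUSG00000042045, chromosome 9, 53850164 to 53854560, plus strand) encodes sarcolipin, a small peptide that uncouples the pump from calcium transport in muscle. It had 14, 0, 13, 2 and 2 reads in controls, and 0 reads in all 5 mice after 5 days, where a count of 0 allows up to 3 reads per library, or 0.591 to 0.655 CPM. Exact permutation tests gave p = 0.0476 at both 6 hours and 5 days, 0.143 after adjustment over 6 durations. Without room temperature replicate 2, the control with 0 reads, the adjusted values were 0.0238 at both times, 0.0476 after 3 days and 0.0317 after 4 days.

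**Figure D3:**
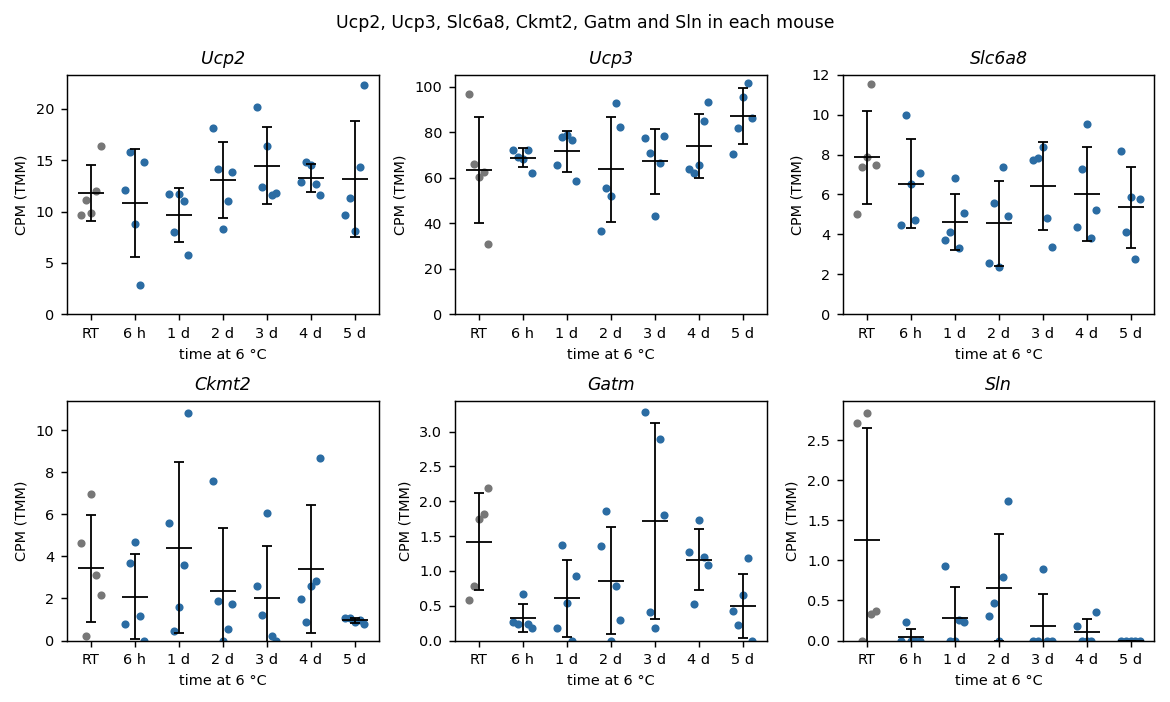
TMM-scaled CPM (y axes, from 0, so that SD bars reaching below 0 are cut there) of Ucp2, Ucp3, Slc6a8, Ckmt2, Gatm and Sln in each of 35 mice by time at 6 °C (x axes, RT is room temperature); points are mice, horizontal marks are means and bars are SD of 5 mice. Control and cold-exposed mice overlap in all 6 panels, and Sln is at 0 in every mouse after 5 days.

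Compared with 6 hours, 5 days of cold gave 3 genes higher and 1 lower among the 7 tested, beside 19% higher and 16.9% lower of 10294 genes. Higher were Ucp3, Ckb and Alpl, with log2FC of 0.36, 0.58 and 2.25. Lower was Atp2a2, with -0.39. Over all 7 groups together, Ucp1, Ckb, Alpl and Atp2a2 passed the test for any difference (adjusted p = 3.87e-10, 3.62e-17, 2.53e-14 and 2.66e-10), as did 60.4% of 12077 genes. Over the 6 cold durations, Ckb, Alpl and Atp2a2 passed. Ucp2, Ucp3, Slc6a8 and Ckmt2 passed neither test, although Ucp3 and Ckmt2 passed both when no filter on low counts was applied.

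To set Ucp1 against single genes without any scaling between libraries, its reads were divided by those of Ckb, Gatm, Atp2a2 or Ucp2 in the same library. Alpl, whose course differed from that of Ckb, was not used, so these ratios do not compare whole cycles. There were 18.9 to 52.7 Ucp1 reads for each Ckb read in controls and 30.5 to 55.5 after 6 hours, ranges that overlap. After 2 days the range was 6.17 to 11.3. All mice of 1, 2 and 3 days lay below all controls. The log2 ratio fell by 1.37, 1.98 and 1.8 at these durations (exact permutation test, adjusted p = 0.0119 for each over 24 tests). After 4 days it fell by 1.16 with overlapping groups (adjusted p = 0.0454), a call lost without any 1 of 7 of the 10 mice, and after 5 days the difference was -0.12 (adjusted p = 0.762), with 22.3 to 43.2 reads per Ckb read.

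The balance of Ucp1 and Atp2a2 moved in one direction. Controls held 13.8 to 20.2 Ucp1 reads per Atp2a2 read and cold-exposed mice 24.0 to 44.6. No group overlapped with the controls, and the log2 ratio was higher by 0.67 after 6 hours and by 1.14 after 5 days, with the others in between (exact permutation test, adjusted p = 0.0119 at every duration). Against Ucp2, the log2 ratio of Ucp1 was higher by 1.29 after 3 days to 2.39 after 1 day, with overlap at 2 and 3 days, and the call at 3 days was lost without any 1 of 5 of the 10 mice. Against Gatm it was higher by 1.74 to 3.73, without a call after 3 days (adjusted p = 0.104), and the call after 2 days was lost without any 1 of 6 of the 10 mice.

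**Figure D4:**
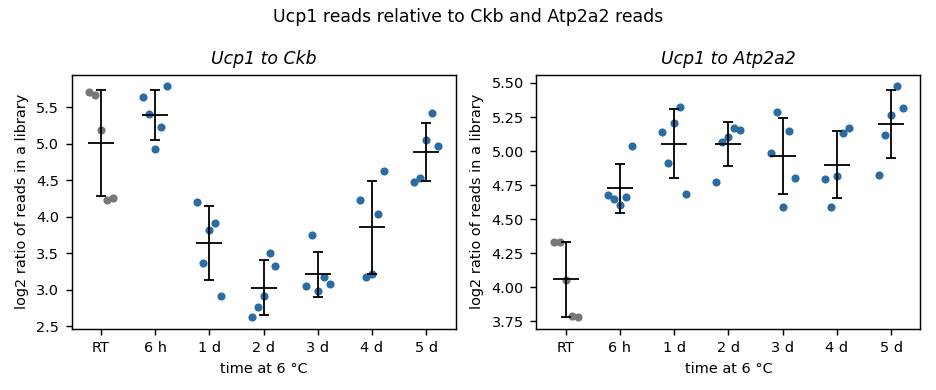
Log2 ratio of Ucp1 reads to Ckb reads (left) and to Atp2a2 reads (right) in each of 35 libraries (y axes) by time at 6 °C (x axes, RT is room temperature); points are mice, horizontal marks are means and bars are SD of 5 mice. The ratio to Ckb is lowest after 2 days, at a mean of 3.03 against 5.01 in controls, and the ratio to Atp2a2 is above all controls at each cold duration.

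Mice of the same duration also differed from each other. After the mean of each duration was removed, Ucp1 and Ucp3 went together over the 35 mice (Pearson's r = 0.75, adjusted permutation p = 0.000360; Spearman's rho = 0.62, adjusted permutation p = 0.00468, over 9 relations). When the 2 mice most distant from the Ucp1 median were left out, r was 0.61, and in the 30 cold-exposed mice alone it was 0.70. Ucp1 and Atp2a2 had r = 0.63 and rho = 0.56 (adjusted permutation p = 0.0101 and 0.0136). That relation did not hold without the 2 farthest mice (r = 0.40, adjusted p = 0.136 by permutation), within the cold-exposed mice (0.51, 0.0921) or with library size scaling (0.46, 0.140). The other 7 relations of Ucp1 had r between -0.32 and 0.33 and none passed, although Slc6a8 reached -0.46 (adjusted p = 0.0499 by permutation) without the 2 farthest mice.

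Of 8 macrophage and other immune markers, 4 were higher after 3 days, beside 18.3% of all genes. Their sums ranged from 83 to 168 CPM in controls and from 118 to 288 CPM after 3 days. Within durations they moved against Ucp1 (r = -0.55, adjusted permutation p = 0.0201 over 10 relations), but by rank the relation did not pass (rho = -0.44, adjusted permutation p = 0.0541), nor did it when the 2 mice most distant from the median immune sum were left out (r = -0.43, adjusted p = 0.144 by permutation). Ucp3 was alike, with r = -0.49 (adjusted permutation p = 0.0289), rho = -0.47 (adjusted permutation p = 0.0541) and r = -0.44 without the 2 farthest mice (adjusted p = 0.144 by permutation). Alpl (r = -0.44, rho = -0.46) and Ucp2 (r = 0.35, rho = 0.41) passed in both measures, with adjusted permutation p of 0.0201 and 0.0424 for each, and neither passed without the 2 farthest mice (r = -0.37 and 0.39). The part of immune cells in these levels was not tested. Summed endothelial markers had r between -0.27 and 0.28 with the 10 genes, and none passed. Between groups, those sums were 235 to 289 CPM in controls, 397 to 498 CPM after 6 hours and 465 to 551 CPM after 1 day, so that neither early group overlapped with the controls. Of the endothelial markers, 2 of 6 were higher and 1 was lower after 6 hours, beside 21.5% of all genes higher and 21% lower. After 1 day 3 of 5 tested were higher, beside 18.9% of all genes. Smooth muscle sums were 40.6 to 62.9 CPM in controls, 74.9 to 92.0 CPM after 6 hours and 69.1 to 91.2 CPM after 1 day. At these durations 4 of 5 and 2 of 4 smooth muscle markers were higher, beside the same shares of all genes. The part of these cells in the early levels of the 10 genes was not tested.

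Muscle markers followed a different set of genes. Their sum went with Ckmt2 (r = 0.87, rho = 0.83, adjusted permutation p = 1e-04 for both, the smallest that these permutations can give) and with Sln (r = 0.64, rho = 0.67, adjusted permutation p = 0.000750 and 0.000400). Without the 2 farthest mice r was 0.84 and 0.75. The r with the other 8 genes lay between -0.07 and 0.27 and did not pass. The highest 1 day library in Ckmt2, with 47 reads, and the highest of 4 days, with 48 reads, are those with the most muscle markers of their groups, at 2165 and 1683 CPM. The same held after 3 days, but not in the controls or after 6 hours. The library with the most Ckmt2 reads of all, the first of 2 days with 50 reads, had a marker sum of 525 CPM. Other mice of its group had 672, 713 and 751 CPM. Of the 31 Sln reads in controls, 14 and 13 came from the 2 muscle-rich control libraries at 1907 and 1497 CPM. Without the muscle-rich libraries, the exact permutation test of Sln after 5 days gave p = 0.107 over 56 splits. Of the 15 muscle markers, 14 were tested after 5 days, when 8 were lower and 1, Mb, was higher, beside 18.6% of all genes lower and 20.2% higher, and its rise after 1 day was 2.69 on the log2 scale. The sum after 5 days, which includes Mb, lay between 388 and 549 CPM against 195 to 1907 CPM in controls. The muscle-rich libraries were chosen by the same sum, and no sum without Mb was taken. The part of muscle in the values of Ckmt2 and Sln was not tested.

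**Figure D5:**
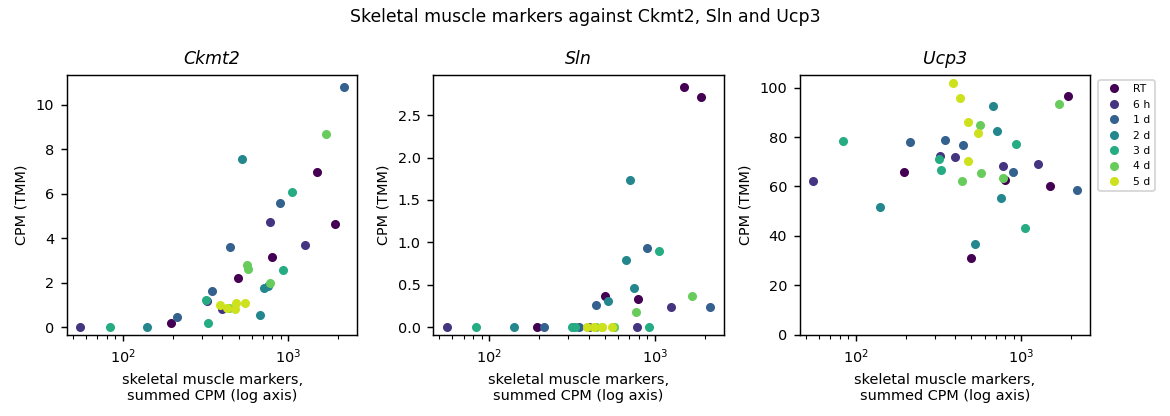
Ckmt2, Sln and Ucp3 (y axes, TMM-scaled CPM) against the summed CPM of 15 skeletal muscle markers (x axes, log scale) in 35 libraries coloured by group (RT is room temperature). Ckmt2 climbs with the marker sum (r = 0.87 within durations), Sln is highest in 2 control libraries, and Ucp3 shows no such relation (r = 0.06).

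The genes whose log2 CPM was most like that of a member over the 35 libraries, among 8885 genes with a mean of at least 20 counts, were as follows. For Ucp1 they were Tmed5 (r = 0.95), Adam12 (0.94) and Slc25a17 (0.94). Adam12 was also the closest to Atp2a2 (0.95), before Cnnm2 and Dlg1 (both 0.92). Closest to Ckb were Dpy19l1 (0.95), Tuba1c and Lamp1 (both 0.93), and to Alpl Kcmf1 and Letm1 (both 0.96) and Snx10 (0.94). Ucp3 was most like Acadvl (0.75), Mrps7 and Txndc12 (both 0.73). The closest genes to Ucp2, led by Ddx60 (0.65), and to Slc6a8, led by Rfx7 (0.57), were less alike. These are descriptions over libraries that share 7 group means.

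Other genes of these pathways moved in both directions. Their counts stand beside 21.5% of all genes higher and 21% lower after 6 hours, and 20.2% higher and 18.6% lower after 5 days. Of the 18 regulators of Ucp1 transcription, 4 were higher and 7 lower after 6 hours, and 3 higher and 7 lower after 5 days, with median log2FC of -0.30 and -0.15. Since the list holds both activators and repressors, neither the counts nor the medians give a direction for Ucp1. Ppargc1a, the coactivator of mitochondrial biogenesis, was higher at all durations, by 3.62 ± 0.22 after 6 hours (adjusted p = 1.19e-09) and 1.97 ± 0.18 after 5 days. Esrra, a nuclear receptor that works with it, was higher by 0.78 and 0.41 at these times. Nr1d1, a clock repressor of Ucp1, was lower by a log2FC of -2.90 ± 0.20 after 6 hours (adjusted p = 5.52e-09) and of -0.46 after 5 days. Letmd1, a mitochondrial protein needed for Ucp1 expression, was at 0.20 after 6 hours, which was not called, and was higher from 1 day on (0.72 to 1.04). Thra and Ppara were lower after 6 hours (-1.03 and -1.19), while Prdm16 was lower from 3 days on (-0.65, -0.81 and -0.66).

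Among 20 partners of the calcium cycle, 13 were tested after 6 hours and 15 after 5 days, with 2 higher and 2 lower at the first time and 4 higher and 3 lower at the second. Calr, a calcium-binding chaperone of the endoplasmic reticulum, was higher throughout (0.64 to 1.14). Itpr2, a calcium release channel, was lower throughout, most after 6 hours (-1.44 ± 0.12, adjusted p = 4.50e-08). Ryr2, the release channel known from heart, was higher after 1 day (1.28), 3 days (1.30), 4 days (1.90) and 5 days (1.37), and Mcu, the calcium uniporter of mitochondria, from 1 day on (0.47 to 0.81). The muscle genes Casq2 and Ryr1 were lower after 5 days (-2.08 and -1.14). Of 6 relatives of the creatine genes only Gamt and Ckm were tested, and Gamt, the second enzyme of creatine synthesis, was lower after 1 day (-2.37 ± 0.42, adjusted p = 0.000324), 2 days (-1.18) and 3 days (-1.30).

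Of 8 mitochondrial carriers and related genes, 7 were tested, of which 3 were higher and 3 lower after 6 hours and 2 higher and 1 lower after 5 days. The phosphate carrier Slc25a3 was higher at every duration (0.45 to 0.73), as was the adenine nucleotide carrier Slc25a5 at all but 1 day, with 0.62 after 6 hours and 0.92 after 5 days. Its relative Slc25a4 was lower after 5 days (-0.44), and Atp5if1, the inhibitor of ATP synthase, was lower after 6 hours (-0.56) and 1 day (-0.83). A list of 10 genes joined the glycerolipid cycle, in which fatty acids are released and esterified again, with Pm20d1 from outside it. Of these 10, 5 were higher and 3 lower after 6 hours and 4 higher and 2 lower after 5 days. Pm20d1 is among those lower at both times. Gk, the glycerol kinase of the cycle, rose by 2.62 ± 0.24 after 6 hours (adjusted p = 1.33e-07) and was at 1.63 after 5 days. Dgat1 was higher by 1.53 and 0.48 at these times and Dgat2 lower (-0.90 and -0.80). Pm20d1, which makes uncoupling N-acyl amino acids, was lower at every duration (-1.09 to -0.73).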

How the data were processed

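A 3' end kit (QuantSeq FWD) was used on iBAT RNA of 35 mice in 7 groups taken from the sample labels. The authors deposited 1 table of raw counts per gene, and the submitters' processing notes name STAR 2.6.1d, HTSeq 0.11.2 and the GRCm38 build. Whether strand was used in counting is not given in the sources used here. Counts were scaled by TMM, filtered with filterByExpr within each comparison and tested with edgeR 4.0.16 (quasi-likelihood, Benjamini-Hochberg threshold 0.05); of the 55421 genes, 267 have no symbol. Members too low to be tested were compared by exact permutation of log2 CPM, and within-library ratios used a pseudocount of 0.5. Correlations used 100000 permutations. The scripts were tested on simulated data. Named genes were all 10 members, up to 4 called genes of largest absolute log2 fold change per list and comparison, and the 3 genes most like each member with a mean of at least 20 counts. Other list genes were named after their values were seen. Members and lists were chosen with earlier results of these data known. The tests of immune and endothelial markers, DESeq2 on neighbouring late durations and the fits without muscle-rich libraries were added after seeing the data. Alternatives were DESeq2 1.42.0, other scalings, no filter, no mitochondrial genes, 1 fit over all 7 groups, a replicate block, other pseudocounts and leaving out each mouse. Promoters came from RefSeq and coordinates from GENCODE M21. Floors of low counts cover counting error only. The confidence intervals come from edgeR's fits, which also estimate the spread between mice.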

Additional observations from a re-analysis of the deposited data

Results flagged for a closer look

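In 69 groups of 5 mice tested for a value far from the rest (Dixon's test, which flags about 1 group in 20 by chance), 8 mice stood apart. For Ucp1 this was the fifth mouse of 6 hours, at 9116 CPM against 6926 CPM in the nearest. For Alpl it was the first control, at 5.81 CPM against 3.64 CPM. For Ckmt2 they were the first mouse of 2 days, at 7.57 CPM, and the fifth of 4 days, at 8.67 CPM, the latter also rich in muscle markers. The others rest on 5 reads or fewer: Gatm in the third mouse of 6 hours (0.673 CPM), and Sln in the second of 6 hours (0.232 CPM), the first of 1 day (0.932 CPM) and the third of 3 days (0.893 CPM). For Sln after 6 hours and 3 days all other mice of the group had 0 reads, so that any read would be flagged.

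Levels differed between 5 days and 6 hours of cold in a direct edgeR test for 4 genes. They were higher after 5 days for Ucp3 (log2FC 0.36), Ckb (0.58) and Alpl (2.25), and lower for Atp2a2 (-0.39). Against room temperature, Ucp3 was called at neither time in the main test. The call for Ucp3 was lost when all 7 groups were fitted together.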

How the results depend on the processing

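Of 425 log2 fold changes of members under other settings, 403 kept their direction and call, as did 507 of 540 fits without 1 mouse. The rises of Ucp1, Ckb, Alpl and Atp2a2 over room temperature were called in each of these. With library size scaling, genes higher and lower numbered 1342 and 3399 after 6 hours, 1140 and 3218 after 1 day, 931 and 2776 after 2 days, and 1194 and 3347 after 5 days. The fall of the Ucp1 to Ckb ratio after 4 days was not called with a pseudocount of 5 (-1.14, adjusted p = 0.0519) and ranged from -1.35 to -0.98 without 1 mouse. After 5 days that ratio ranged from -0.31 to 0.057. Pairs of cold durations other than 5 days against 6 hours were tested with edgeR alone, except for neighbouring late durations, where DESeq2 called Ckb between 5 and 4 days (adjusted p = 0.00549) and not between 4 and 3 days (0.402).

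Signs changed in values that were not called. With library size scaling Ucp3 was at -0.083 after 6 hours, -0.039 after 1 day and -0.048 after 3 days, and Ucp2 at -0.062 after 2 days and -0.075 after 5 days. Without muscle-rich libraries Ckmt2 was at 0.11, 0.40, 0.17 and 0.13 after 6 hours, 2, 3 and 4 days, Sln at 0.013 after 1 day and 0.58 after 2 days, Ucp3 at 0.23 after 2 days, and Ucp2 at -0.012 after 2 days and -0.00359 after 5 days. Ckmt2 after 4 days was at 0.00654 with RLE factors and 0.023 with no filter, and Ucp3 after 2 days at 0.000143 with no filter. Without 1 mouse, Ckmt2 ranged from -0.24 to 0.78 after 1 day and -0.70 to 0.40 after 4 days, Ucp3 from -0.068 to 0.31, -0.00081 to 0.38, -0.19 to 0.18 and -0.083 to 0.30 after 6 hours, 1, 2 and 3 days, Ucp2 from -0.30 to 0.11, -0.029 to 0.29 and -0.12 to 0.31 after 6 hours, 2 and 5 days, and Gatm from -0.32 to 0.34 and -0.37 to 0.00494 after 3 and 4 days. The r of Ucp1 with Alpl was -0.019 without the 2 farthest mice. The r with muscle markers was -0.023 (Atp2a2), -0.084 (Ckb) and -0.060 (Ucp3) in cold-exposed mice and 0.068 (Ucp1) without the 2 farthest, and rho was -0.050 (Ckb) and -0.022 (Ucp3).

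Same-numbered mice of 2 groups showed little likeness (r of deviations -0.18 to 0.13), and mice correlated best with their own number in at most 1 of 5 cases. The labels do not say that a number is shared between durations, and these r cannot show whether mice were paired. A replicate block gave 4490 calls against 4505 after 6 hours and 2857 against 3313 after 2 days, and put Ucp3 after 2 days at 0.0019.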

Other observations

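Marker lists moved over the same time course. Summed white-like adipocyte markers (Lep, Retn, Nnat, Car3 and Agt) lay at 5903 to 6533 CPM in controls, 2453 to 4572 CPM after 6 hours and 254 to 1712 CPM from 1 day on. Only 2 of 5 were called lower after 5 days, at a median log2FC of -0.20, so the sum does not stand for each gene. The study uses Nnat and Car3 as markers of differentiating brown adipocytes, so the list is not specific to white-like cells. Cycling cell markers were at 4.58 to 7.82 CPM in controls and 11.1 to 60.6 CPM from 3 to 5 days, and 2 of 2 tested were higher after 5 days. Smooth muscle markers had 4 of 5 higher after 6 hours, beside 21.5% of all genes, and 2 of 4 lower after 5 days. After 5 days, when 20.2% of all genes were higher and 18.6% lower, the counts higher and lower were 4 and 1 of 8 for brown adipocyte, 2 and 2 of 6 for mature adipocyte, 0 and 1 of 6 for endothelial, 2 and 1 of 7 for immune, 0 and 1 of 5 for stromal, 0 and 0 of 3 for Schwann and nerve, and 3 and 0 of 5 for erythroid markers. Their part in the levels of the futile cycle genes was not tested.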
